A study of Mus musculus with 3 samples.

Results

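The genes described here are 7 of the 27998 genes counted in single cells of the mouse meninges, and all of them belong to the machinery by which tissue phagocytes tag, sense and take up debris. They are the complement C1q chains *C1qa*, *C1qb* and *C1qc*, the C3a receptor gene *C3ar1*, the receptor gene *Trem2*, its signalling adaptor *Tyrobp*, and the apolipoprotein gene *Apoe*. They were chosen by symbol, and each symbol matched 1 row of the count matrix. Their counts were read in 7057 cells, which are the barcodes with at least 500 unique molecular identifiers (UMIs, each marking 1 captured RNA molecule), 174 to 4548 genes and under 8.3% of UMIs from mitochondrial genes.

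The study asked how social stress changes the immune cells of the meninges, the membranes around the brain. All mice were male C57BL/6J animals of 10 to 12 weeks. The home cage (HC) mice were not stressed, and the chronic social defeat (CSD) mice met an aggressor over 14 days and were then picked as stress-susceptible by their behaviour. HC replicate 1, HC replicate 2 and CSD replicate 1 are each 1 library from the pooled meninges of 4 mice, so the CSD group is 1 library of 4 susceptible mice, and its effect cannot be told apart from that of its pool and its lane on the chip. In every group the cells came from digested whole meninges and were sorted as live, nucleated singlets (DAPI- DRAQ5+), with no selection for phagocytes.

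The libraries held 8814690 to 10206236 UMIs in all and 1702 to 2756 cells, with medians of 2212 to 2503 UMIs per cell. Barcodes of at most 100 UMIs took 7.87%, 24.1% and 5.48% of the UMIs. Here and below, 3 values in a row stand for HC replicate 1, then HC replicate 2, then CSD replicate 1. These barcodes were taken to hold no cell and are called free RNA. Whether all their RNA had floated free in the suspension was not tested. HC replicate 2 therefore stood apart in its free RNA, and for most comparisons of CSD with HC the values without each HC library are given below. They have no test, since 1 library is then left in each group. Each pair of libraries shared 3 to 8 cell barcodes.

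Clusters were named from marker genes that did not include the 7 genes, and the 7 genes took no part in clustering. One cluster of 500 cells was macrophage-like (315, 62 and 123 cells), and 1 cluster of 368 cells was microglia-like (183, 93 and 92). In the macrophage-like cells the 12 border macrophage markers summed to 5634, 2625 and 3695 CPM (UMIs per 1000000 UMIs of the class in that library) and all had a UMI, apart from *Cd209f*, at 0 in HC replicate 2. *Pf4*, a chemokine gene of these cells, reached 2107, 862 and 1278 CPM. In the microglia-like cells the 11 microglia markers all had UMIs and summed to 21720, 22136 and 20397 CPM, while the border macrophage markers summed to 338, 147 and 189 CPM, with *Mrc1* and *Cd163* at 0 in HC replicate 2. The microglia markers reached 2341, 3165 and 2304 CPM in the macrophage-like cells, of which *Sall1* was at 0. The 14 other classes (monocyte-, neutrophil-, lymphocyte-, stromal- and neuron-like cells, 1 unnamed cluster led by *Prtn3* and *Ass1*, and 1 mixed cluster with *Fabp4* and *Wfdc2* among its leading genes) made up the rest.

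C1q is the recognition unit of the classical complement pathway. It is built from an A, a B and a C chain in equal numbers, binds immune complexes and dying cells, and is made by resident macrophages and, in the brain, by microglia. C3a, a fragment released when complement component C3 is cut, acts on cells through the receptor encoded by *C3ar1*. TREM2 is a surface receptor for lipids and apolipoproteins that signals through the adaptor DAP12, the product of *Tyrobp*. DAP12 also serves many other receptors of myeloid and natural killer cells. Apolipoprotein E carries cholesterol and other lipids between cells and binds TREM2. In the brain, *Trem2* and *Apoe* are known for their part in the response of microglia to damage and to amyloid.

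All 7 genes are protein coding in GENCODE M21 on GRCm38, and no other annotated gene overlaps them. The 3 C1q genes lie side by side on the minus strand of chromosome 4 and span 18675 bases together: *C1qb* (ENSMUSG00000036905) at chr4:136880129-136886187, *C1qc* (ENSMUSG00000036896) at chr4:136889804-136893065 and *C1qa* (ENSMUSG00000036887) at chr4:136895917-136898803. Gaps of 3616 and 2851 bases separate them. *C3ar1* (ENSMUSG00000040552) lies at chr6:122847138-122856161 on the minus strand and *Trem2* (ENSMUSG00000023992) at chr17:48346401-48354147 on the plus strand. *Tyrobp* (ENSMUSG00000030579) at chr7:30413760-30417585 on the plus strand and *Apoe* (ENSMUSG00000002985) at chr7:19696109-19699188 on the minus strand share a chromosome but are not neighbours.

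RefSeq promoter sequence on GRCm38.p6 was matched for 5 of the 7 genes. It is shown for the 4 that hold the letters GAGGAA on either strand, a motif of PU.1. This ETS factor is a known regulator of genes in myeloid cells. *Apoe* has 3 RefSeq windows, of which the one before the GENCODE start is shown, and 1 of the other 2 also holds these letters. Each run is read 5′ to 3′ on the strand of its gene and ends just before the start of transcription (for *C1qc*, before the start of the GENCODE gene, which takes in 151 of the bases before the RefSeq start). Capitals mark the letters GAGGAA or, where they lie on the opposite strand, TTCCTC. The shorter GGAA, the core shared by ETS factors, is not marked where it stands outside them.
*Apoe*, chr7:19699189-19699438: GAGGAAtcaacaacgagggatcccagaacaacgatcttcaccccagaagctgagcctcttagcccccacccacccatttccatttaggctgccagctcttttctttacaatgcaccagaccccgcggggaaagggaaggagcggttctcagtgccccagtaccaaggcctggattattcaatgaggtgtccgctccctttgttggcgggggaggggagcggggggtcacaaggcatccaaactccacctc
*C1qb*, chr4:136886201-136886450: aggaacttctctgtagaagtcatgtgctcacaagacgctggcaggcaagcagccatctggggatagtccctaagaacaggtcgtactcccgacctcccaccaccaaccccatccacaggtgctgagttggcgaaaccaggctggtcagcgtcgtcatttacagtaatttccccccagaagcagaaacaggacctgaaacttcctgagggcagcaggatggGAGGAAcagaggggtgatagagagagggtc
*C1qc*, chr4:136893066-136893164: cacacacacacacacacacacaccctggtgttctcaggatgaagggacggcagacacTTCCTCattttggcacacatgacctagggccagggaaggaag
*Trem2*, chr17:48346151-48346400: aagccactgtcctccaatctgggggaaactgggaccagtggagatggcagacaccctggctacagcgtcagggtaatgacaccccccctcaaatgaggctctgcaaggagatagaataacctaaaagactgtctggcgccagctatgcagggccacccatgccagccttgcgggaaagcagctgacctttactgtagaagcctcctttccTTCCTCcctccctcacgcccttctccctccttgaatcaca

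In these windows the marked letters begin 250 bases before the RefSeq start in *Apoe*, 30 bases in *C1qb*, 193 bases in *C1qc* and 40 bases in *Trem2*. On either strand the same letters occur in 7639 of 32851 RefSeq promoter windows of 250 bases (23.3%). The *C3ar1* window does not hold them, though it holds the shorter GGAA. A match is a description of the sequence and not a measured site.

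*C1qa*, *C1qb*, *C1qc*, *C3ar1*, *Trem2* and *Apoe* had their highest level in macrophage-like or microglia-like cells, in each of the 3 libraries, whereas the mean of *Tyrobp* was highest in neutrophil-like cells (in HC replicate 2, plasmacytoid dendritic cell (pDC)-like cells stood above them). UMIs come from the 3′ end and count molecules, so the CPM values were not divided by gene length, and levels are compared below between cells and not between genes. *C1qa*, the A chain, reached 9583, 9001 and 10765 CPM in the microglia-like cells and 7294, 6925 and 9102 CPM in the macrophage-like cells of the same libraries. The ranges of the 2 classes overlapped, and the lower of their means was 10.5 times the next, that of conventional dendritic cell (cDC)-like cells at 739 ± 260 CPM (SD, n = 3 libraries). In the other classes the means were 376 to 554 CPM, below the 1348 ± 496 CPM of the free RNA.

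*C1qb* and *C1qc*, the B and C chains, followed the same order. *C1qb* reached 7461, 6889 and 8882 CPM in microglia-like cells and 5964, 5572 and 7242 CPM in macrophage-like cells, 9.15 times the cDC-like mean at the lower of the 2. *C1qc* reached 7163, 6323 and 7054 CPM in microglia-like cells and 4894, 4250 and 5537 CPM in macrophage-like cells, and here the ranges did not overlap. CSD replicate 1 held the highest value of *C1qa* and *C1qb* in both classes.

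*C3ar1* had the fewest UMIs of the 7 genes and, unlike the C1q chains, its highest level in macrophage-like cells. Its level was 220, 292 and 256 CPM in macrophage-like cells and 148, 85.6 and 150 CPM in microglia-like cells, with no overlap. Free RNA followed at a mean of 36.9 CPM and cDC-like cells at 30.5 ± 8.42 CPM (SD, n = 3 libraries). With 168 to 422 *C3ar1* UMIs in a whole library, the order of the remaining classes could not be read.

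*Trem2* was highest in microglia-like cells, at 2437, 2050 and 2327 CPM, and second in macrophage-like cells, at 757, 757 and 776 CPM. The ranges lay far apart, the mean in microglia-like cells being 2.98 times that in macrophage-like cells. Free RNA held 384, 205 and 136 CPM, and the unnamed cluster and monocyte-like cells followed with means of 155 and 151 CPM.

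*Tyrobp* had the widest range of cells. Neutrophil-like cells held 5815, 5451 and 5746 CPM, pDC-like cells 5209 ± 736 CPM and monocyte-like cells 5072 ± 140 CPM (SD, n = 3 libraries). Macrophage-like cells held 3682, 3680 and 3866 CPM and microglia-like cells 3665, 3083 and 3744 CPM, and their ranges overlapped. The lower of the 2 means was 0.617 times that of neutrophil-like cells. T- and NK-like cells, whose killer cell receptors use the same adaptor, came to 1792 ± 133 CPM, above the B-like and fibroblast-like cells (means of 924 to 1008 CPM), though the free RNA itself stood at 2952 ± 194 CPM.

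*Apoe* was concentrated in macrophage-like cells, at 30607, 30398 and 32541 CPM. Microglia-like cells held 3398, 1556 and 1783 CPM, and the mean of macrophage-like cells was 13.9 times theirs. The microglia-like mean of 2245 ± 1004 CPM (SD, n = 3 libraries) lay below those of the mixed cluster (2790 CPM), fibroblast-like (2488 CPM), cDC-like (2368 CPM) and monocyte-like cells (2268 CPM), and their ranges overlapped. Free RNA held 6718, 2187 and 2510 CPM of *Apoe*, and in HC replicate 1, where it was highest, *Apoe* was also highest in microglia-like cells.

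**Figure D1:**
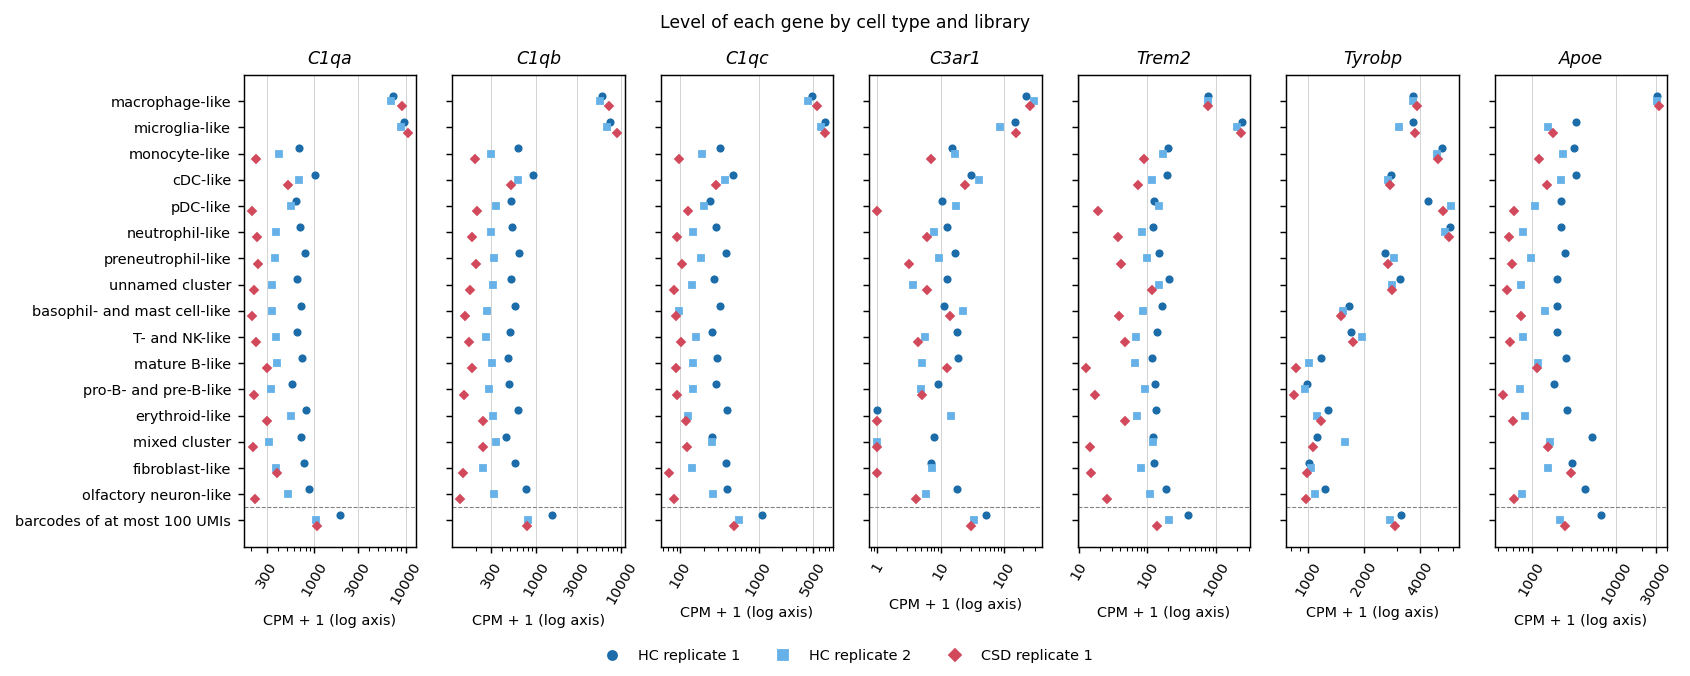
Level of each gene in every cell class, as CPM + 1 of summed UMIs on a log axis, 1 panel per gene and 1 point per library (HC replicate 1 dark blue circles, HC replicate 2 light blue squares, CSD replicate 1 red diamonds), with free RNA under the dashed line. Macrophage-like and microglia-like cells stand to the right of every other class for the C1q chains and *Trem2*, macrophage-like cells alone for *Apoe* (30398 to 32541 CPM), and *Tyrobp* spreads over the myeloid classes.

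The same contrast appeared cell by cell after every cell was thinned to 500 UMIs. A *C1qa* UMI was found in 98.4%, 100% and 97.8% of microglia-like cells and in 94.3%, 87.1% and 95.1% of macrophage-like cells. T- and NK-like cells, which should lack the gene, still had one in 23.3%, 20.9% and 12.0% of cells (73.6%, 56.4% and 38.0% without thinning). Median depths before thinning were 2078, 2307 and 1733.5 UMIs in microglia-like, 2939, 2654.5 and 2251 in macrophage-like and 2195.5, 2514 and 1999.5 in T- and NK-like cells.

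A *Trem2* UMI was found in 67.8% (Clopper-Pearson 95% interval 60.5% to 74.5%), 62.4% (51.7% to 72.2%) and 63.0% (52.3% to 72.9%) of microglia-like cells. In macrophage-like cells the shares were 31.4% (26.3% to 36.9%), 30.6% (19.6% to 43.7%) and 35.0% (26.6% to 44.1%), so the intervals of the 2 classes were apart in every library. In T- and NK-like cells they were 3.9%, 3.7% and 2.3%. These intervals cover counting error only, since cells of 1 library are not replicates. *Apoe* separated the classes the other way, with a UMI in 98.4%, 90.3% and 96.7% of macrophage-like cells and in 72.1%, 38.7% and 32.6% of microglia-like cells, the latter close to neutrophil-like cells at 67.6%, 31.6% and 26.4%.

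All 3 C1q chains were seen together at 500 UMIs in 89.6%, 92.5% and 93.5% of microglia-like cells and in 77.1%, 66.1% and 87.8% of macrophage-like cells. Without thinning, all 7 genes were seen in the same cell in 36.2%, 40.3% and 28.5% of macrophage-like cells and in 25.7%, 12.9% and 15.2% of microglia-like cells. Within a class the genes varied: in the macrophage-like cells of HC replicate 1 the median cell had 286 *Apoe* UMIs per 10000, and the 10th and 90th percentiles were 93.3 and 530.

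For *C1qa*, the 2 phagocyte classes held far more of the UMIs than of the UMIs of all genes, and for *Tyrobp* they did not. Macrophage-like cells held 37.9%, 12.8% and 35.5% of all *C1qa* UMIs of their library, against 9.5%, 1.83% and 2.87% of the UMIs of all genes. Microglia-like cells held a further 21.2%, 21.7% and 25.9% of *C1qa*, and 4.04%, 2.38% and 1.76% of all UMIs. Of the *Apoe* UMIs 51.6%, 26.1% and 53.9% lay in macrophage-like cells, and of the *Tyrobp* UMIs 11.4%, 2.32% and 3.24% lay there and 74.8%, 56.3% and 89.5% lay in cells outside both classes. In HC replicate 2, 25.7% of the *C1qa* and 24.8% of the *Apoe* UMIs lay in barcodes of at most 100 UMIs.

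Outside the phagocytes the genes other than *Tyrobp* were mostly below their level in free RNA. All genes but *C3ar1*, whose lowest class in each library held none, had UMIs in every class. Over the 14 other classes the level relative to free RNA had a median of 0.367, 0.363 and 0.213 for *C1qa*, 0.349, 0.453 and 0.269 for *Trem2* and 0.376, 0.472 and 0.246 for *Apoe*. The neutrophil gene *S100a8*, in the 13 classes other than neutrophil-like cells, preneutrophil-like cells and the unnamed cluster, had medians of 0.330, 0.239 and 0.216. For *Tyrobp* the medians were 0.531, 0.636 and 0.554, and the highest classes reached 1.84, 2.12 and 1.96 times the free RNA.

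The proportions between the genes within a library differed between classes. Macrophage-like cells held 4.20, 4.39 and 3.58 *Apoe* UMIs per *C1qa* UMI, and microglia-like cells held 0.355, 0.173 and 0.166. Free RNA held 3.5, 2.08 and 2.34, and the median of the 14 other classes was 3.27, 2.41 and 2.86. On a log scale both are nearer to the macrophage-like than to the microglia-like proportion. Monocyte-like cells (4.67, 5.86 and 5.42), fibroblast-like cells (3.89, 4.04 and 7.50) and the mixed cluster (7.31, 5.19 and 7.44) exceeded the free RNA of their own library in all 3 libraries. Some of these values rest on few *C1qa* UMIs. There were 28 in the fibroblast-like cells of CSD replicate 1. The mixed cluster had 21 in HC replicate 2 and 16 in CSD replicate 1.

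For *Trem2* per *C1qa* UMI the order was reversed, with 0.254, 0.228 and 0.216 in microglia-like and 0.104, 0.109 and 0.085 in macrophage-like cells. Free RNA lay between them, at 0.20, 0.195 and 0.127. On a log scale it was nearer to the microglia-like proportion in both HC libraries and to the macrophage-like proportion in CSD replicate 1. Monocyte-like cells (0.287, 0.412 and 0.391) and the unnamed cluster (0.319, 0.427 and 0.521) were above both phagocyte classes and above free RNA in all 3 libraries. The 3 C1q chains were themselves not in 1 fixed proportion: *C1qc* made up 29.6%, 28.5% and 26.4% of the C1q UMIs in microglia-like cells, 27.0%, 25.4% and 25.3% in macrophage-like cells and 18.9%, 17.4% and 18.1% in neutrophil-like cells. The interval of HC replicate 1 was 28.7% to 30.5% in microglia-like and 17.2% to 20.6% in neutrophil-like cells (Clopper-Pearson, 95%), and free RNA lay between, at 24.1%, 23.0% and 20.6%.

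**Figure D2:**
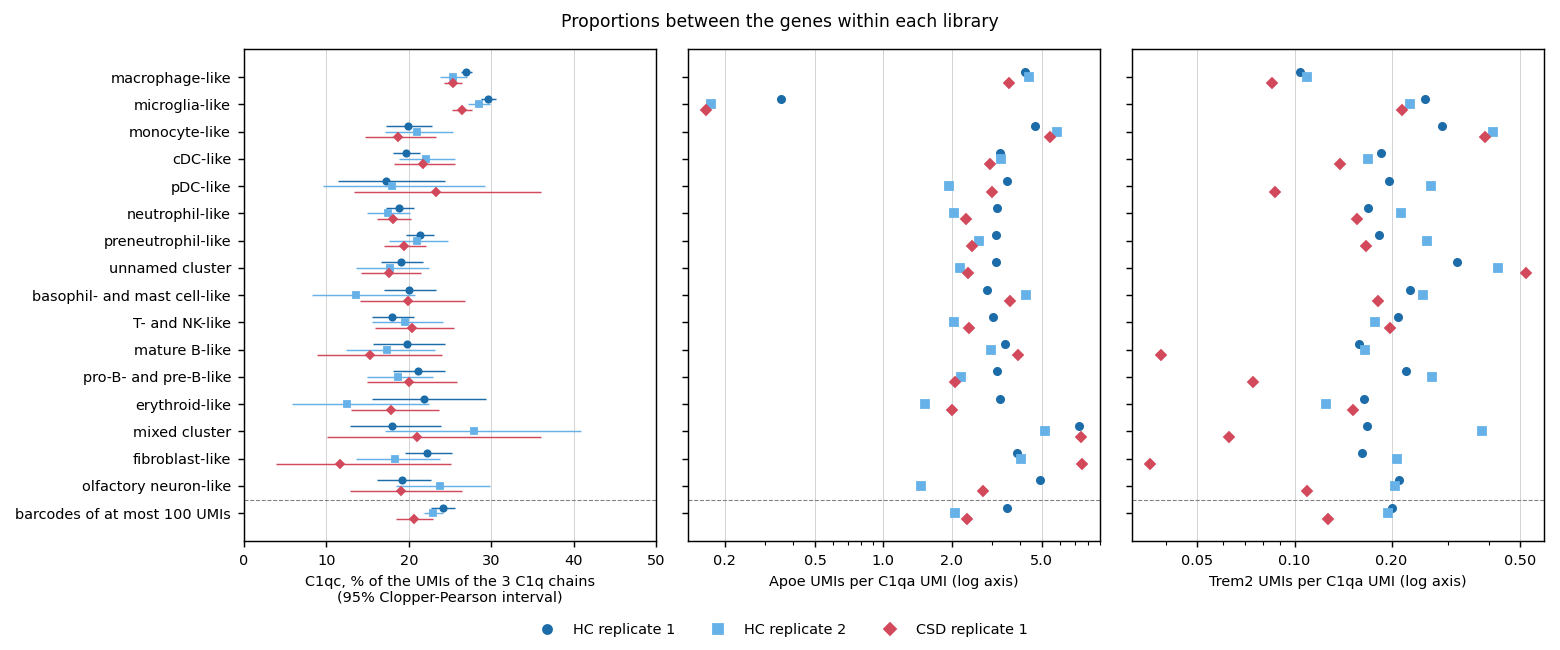
Proportions between the genes within each library by cell class: *C1qc* as a percentage of all C1q UMIs with its 95% Clopper-Pearson interval (left), *Apoe* UMIs per *C1qa* UMI (middle, log axis) and *Trem2* UMIs per *C1qa* UMI (right, log axis), with free RNA under the dashed line. Microglia-like cells stand alone at the left of the middle panel (0.166 to 0.355), and monocyte-like cells and the unnamed cluster lie to the right for *Trem2*.

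Macrophage-like and microglia-like cells of the same library were compared directly with edgeR on summed UMIs, with library as a block. *C3ar1* and *Apoe* were higher in macrophage-like cells, by 1.11 ± 0.19 (SE; adjusted p = 4.82e-05) and 4.10 ± 0.16 (adjusted p = 3.77e-19) on the log2 scale, and *Trem2* was lower, by -1.35 ± 0.11 (adjusted p = 8.85e-11), each in 3 of 3 libraries. *Tyrobp* was higher by 0.34 ± 0.11 (edgeR adjusted p = 0.0215), but this call was lost without CSD replicate 1 (adjusted p = 0.162), without normalization by TMM (adjusted p = 0.519) and with DESeq2 (adjusted p = 0.331). Of all 7294 genes tested 17.9% passed, a share that includes the genes that shaped the clusters.

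The C1q chains did not pass: the log2 differences were -0.10 ± 0.10 for *C1qa*, -0.07 ± 0.10 for *C1qb* and -0.25 ± 0.10 for *C1qc* (edgeR adjusted p = 0.594, 0.741 and 0.0921). All 3 were lower in macrophage-like cells in 3 of 3 libraries as CPM, with microglia-like means 1.26, 1.24 and 1.4 times the macrophage-like means. The outcome depended on the processing. With library totals in place of TMM the differences were -0.34, -0.31 and -0.50 and passed (edgeR adjusted p = 0.00133, 0.00352 and 3.72e-05). Of the 3, *C1qc* alone also passed without HC replicate 2, with doublets left out, without the mutual-nearest-neighbour correction and at Leiden resolution 2 (-0.25 to -0.29, edgeR adjusted p = 0.0139 to 0.0313).

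**Figure D3:**
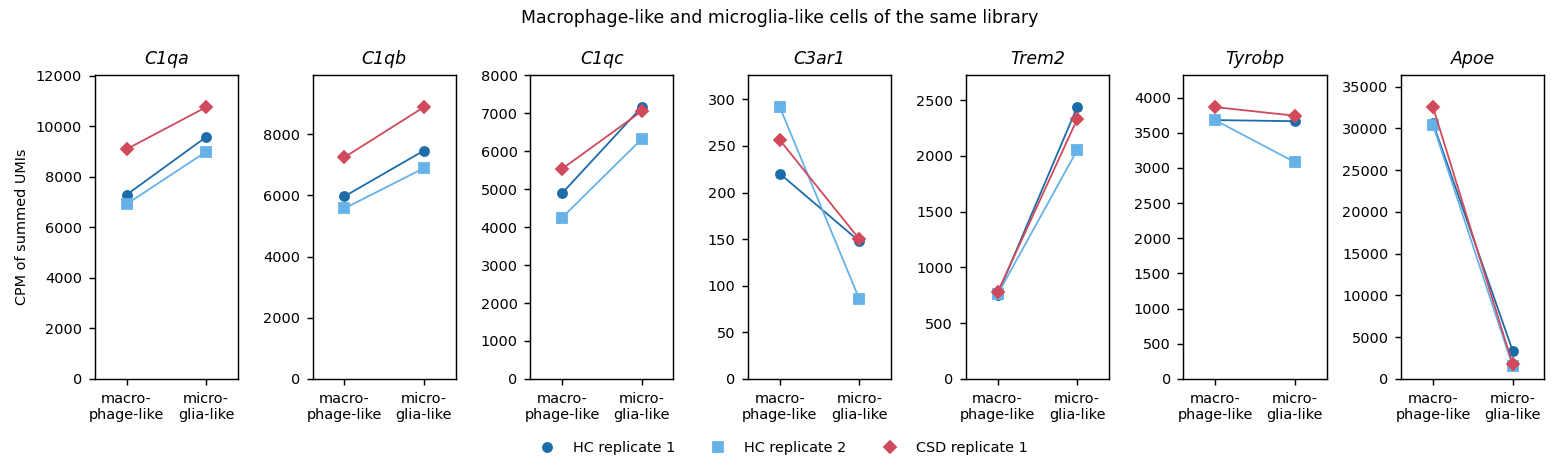
CPM of each gene in the macrophage-like and microglia-like cells of the same library, 1 line per library (HC replicate 1 dark blue circles, HC replicate 2 light blue squares, CSD replicate 1 red diamonds), with axes from 0. In all 3 libraries the points of microglia-like cells are higher for the C1q chains and *Trem2* and lower for *C3ar1* and *Apoe*, and those of *Tyrobp* are nearly level (3497 against 3742 CPM in the mean).

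The macrophage-like cells divided into an MHCII-high subcluster of 307 cells, with more of the antigen presentation genes, and an MHCII-low subcluster of 193 cells (145, 9 and 39 in the 3 libraries), the latter with *Mrc1* at a mean of 629 CPM and *Lyve1* at 522 CPM. *Apoe* reached 24655, 26149 and 28971 CPM in MHCII-high and 37698, 51830 and 42100 CPM in MHCII-low cells, with no overlap. It was the only one of the 7 genes to pass, at -0.44 ± 0.12 on the log2 scale in MHCII-high against MHCII-low cells (edgeR adjusted p = 0.00608), beside 5.14% of the 5666 genes tested. It also passed without HC replicate 2, which has 9 MHCII-low cells (-0.41, edgeR adjusted p = 0.000122), and without HC replicate 1 (-0.70, edgeR adjusted p = 0.0203). It was lost with DESeq2 (-0.50, adjusted p = 0.179) and without the correction between libraries (-0.27, edgeR adjusted p = 0.24).

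*C1qa* (7239 ± 1256 against 9200 ± 1020 CPM) and *C1qc* (4346 ± 604 against 6304 ± 576 CPM, SD, n = 3 libraries) had lower values in the MHCII-high cells of every library, and *C3ar1* higher ones (275 ± 37.4 against 202 ± 24.7 CPM). None of these passed (edgeR adjusted p = 0.928, 0.353 and 0.216). With library totals in place of TMM, *C1qa*, *C1qc* and *Apoe* passed, all lower in MHCII-high cells. That scaling moves the median over all genes from 0.05 to -0.16.

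**Figure D4:**
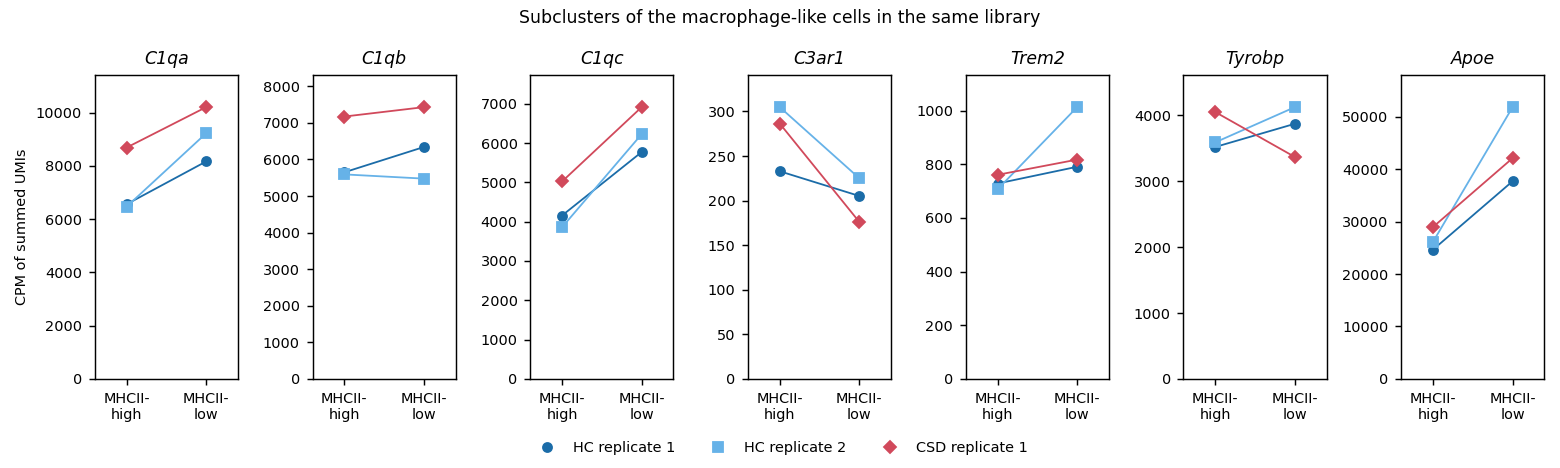
CPM of each gene in the MHCII-high and MHCII-low subclusters of the macrophage-like cells of the same library, 1 line per library and axes from 0. *Apoe* is higher in MHCII-low cells in all 3 libraries, as are *C1qa* and *C1qc*, while *C3ar1* is lower there. HC replicate 2 has 9 MHCII-low cells.

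CSD was then compared with HC in each class, with the 2 HC libraries giving the spread and 1 residual degree of freedom. With these few libraries, edgeR took the spread behind each p-value and SE from the 2 HC pools together with a trend over all genes. They therefore need not reflect how far the HC pools differed for a given gene. In lymphocyte-like cells, for example, *Apoe* stood at 2072 and 820 TMM-scaled CPM in the HC libraries, with an SE of 0.20. In macrophage-like cells none of the 7 genes passed. The log2 changes were 0.42 ± 0.21 for *C1qa*, 0.39 ± 0.21 for *C1qb*, 0.34 ± 0.22 for *C1qc*, 0.11 ± 0.33 for *C3ar1*, 0.10 ± 0.25 for *Trem2*, 0.13 ± 0.22 for *Tyrobp* and 0.16 ± 0.19 for *Apoe* (SE; edgeR adjusted p = 1 for each). CSD replicate 1 lay above both HC libraries for all but *C3ar1*. Without HC replicate 1 the values were 0.05 to 0.41, apart from -0.17 for *C3ar1*, and without HC replicate 2 they were 0.12 to 0.40. The background was 0% of 5666 genes, with 156 at an unadjusted p under 0.05, and with DESeq2 no member passed.

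In microglia-like cells none of the 7 genes passed either. The largest values were 0.34 ± 0.18 for *C1qb* (edgeR adjusted p = 0.933) and -0.46 ± 0.30 for *Apoe* (edgeR adjusted p = 0.933), the others lying between 0.08 and 0.31. For *Apoe*, leaving out HC replicate 1 gave 0.21 and leaving out HC replicate 2 gave -0.92, so its sign depended on which HC library was kept. The other 6 genes lay between 0.17 and 0.82 without HC replicate 1 and between -0.06 and 0.26 without HC replicate 2. The background was 0.0224% of 4459 genes, and 225 genes had an unadjusted p under 0.05. For *Apoe*, HC replicate 1 was high at 3635 TMM-scaled CPM, and HC replicate 2 (1637) and CSD replicate 1 (1931) were low.

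In monocyte-like cells 5 of the 6 genes tested passed as lower with CSD, against 1.21% of all 5636 genes (*C3ar1* had too few UMIs). *C1qa* stood at 719 and 403 TMM-scaled CPM in the HC libraries and at 238 in the CSD library, a log2 change of -1.24 ± 0.22 (edgeR adjusted p = 9.81e-06). *C1qb* (-1.26), *C1qc* (-1.39) and *Apoe* (-1.15) were also lower, each with an edgeR adjusted p of at most 1.15e-05, and *Trem2* by -1.0 ± 0.26 (edgeR adjusted p = 0.0145). *Tyrobp*, which these cells make in quantity, had a value of 0.01 ± 0.20 (edgeR adjusted p = 0.999).

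Lymphocyte-like cells, the T-, NK- and B-like cells pooled, make none of the C1q chains or *Trem2* in textbook accounts, and yet showed the same 5 genes as lower, against 1.01% of 8642 genes. *Trem2* stood at 133, 74.4 and 30.1 TMM-scaled CPM, with the CSD library lowest, a change of -1.79 ± 0.27 (edgeR adjusted p = 2.89e-08). *C1qa* (-1.07, adjusted p = 4.25e-05), *C1qb* (-1.25, adjusted p = 8.02e-07), *C1qc* (-1.12, adjusted p = 4.13e-05) and *Apoe* (-1.24, adjusted p = 2.42e-07) also passed with edgeR. *C3ar1* (-0.93) and *Tyrobp* (-0.04) did not.

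In neutrophil-like cells, the cells the study is about, 1 of the 7 genes passed, against 1.04% of 7193 genes. *Trem2* stood at 117, 76.5 and 40.0 TMM-scaled CPM and changed by -1.29 ± 0.27 (edgeR adjusted p = 0.0315). The C1q chains had values of -1.04 to -1.07 and *Apoe* of -1.31 ± 0.40 (edgeR adjusted p = 0.109 to 0.219). Without HC replicate 1 the *C1qa*, *C1qb*, *C1qc* and *Apoe* values were -0.52, -0.56, -0.47 and -0.34, and without HC replicate 2 they were -1.45, -1.43, -1.51 and -1.90. *Tyrobp*, highest in these cells, had a value of 0.23 ± 0.17 (edgeR adjusted p = 0.72).

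The calls in these 3 classes were not stable. With DESeq2 no member passed in any of them. Without HC replicate 1 the change in lymphocyte-like cells was -0.56 for *C1qa* and -0.42 for *Apoe*, and without HC replicate 2 it was -1.45 and -1.76. In monocyte-like cells the same values were -0.78 and -0.89, and -1.62 and -1.40, and for *Trem2* in neutrophil-like cells -0.97 and -1.57. 

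Free RNA was measured the same way. None of the 7 genes passed there, with values of -0.36 for *C1qa*, -0.46 for *C1qb*, -0.66 for *C1qc*, -0.37 for *C3ar1*, -1.0 for *Trem2*, 0.09 for *Tyrobp* and -0.72 for *Apoe* (edgeR adjusted p = 0.911 to 0.982). The background was 0% of 8773 genes, with 422 at an unadjusted p under 0.05. These values depended on which HC library was kept. Without HC replicate 1 they were 0.13 for *C1qa*, 0.07 for *C1qb*, -0.09 for *C1qc*, -0.49 for *Trem2* and 0.30 for *Apoe*, and without HC replicate 2 they were -0.75, -0.86, -1.09, -1.4 and -1.33. HC replicate 1 was high for *Apoe* (6624 TMM-scaled CPM), and HC replicate 2 (2171) and CSD replicate 1 (2672) were low. The share of macrophage-like cells moved the same way, at 12.1%, 3.64% and 4.46% of cells. The part of the macrophage-like share in the lower values outside the phagocytes was not tested. Free RNA was compared with neutrophil-like and lymphocyte-like cells, but not with monocyte-like cells, by testing the difference between the changes. This compares the make-up of the free RNA and takes no account of how much of it entered each cell. The part of free RNA in the lower values was therefore not tested.

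The difference between the changes did not pass for any of the 7 genes in either class. In neutrophil-like cells the change minus that of free RNA was -0.53 to 0.27 over the 7 genes, against 0.0298% of 10061 genes called, and it was -0.63 to 0.12 without HC replicate 1 and -0.74 to 0.10 without HC replicate 2. In lymphocyte-like cells it was -0.70 ± 0.22 for *C1qa*, -0.80 ± 0.22 for *C1qb*, -0.79 ± 0.33 for *Trem2* and -0.59 ± 0.21 for *Apoe* (edgeR adjusted p = 0.745, 0.618, 0.877 and 0.862), against 0.0471% of 10622 genes. For the same 4 genes, leaving out HC replicate 1 gave -0.69, -0.81, -0.82 and -0.73, and leaving out HC replicate 2 gave -0.71, -0.78, -0.75 and -0.44. The *C3ar1* difference in these cells turned from -0.46 to 0.30 when HC replicate 1 was left out. A p that misses the threshold does not show that the changes were equal.

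**Figure D5:**
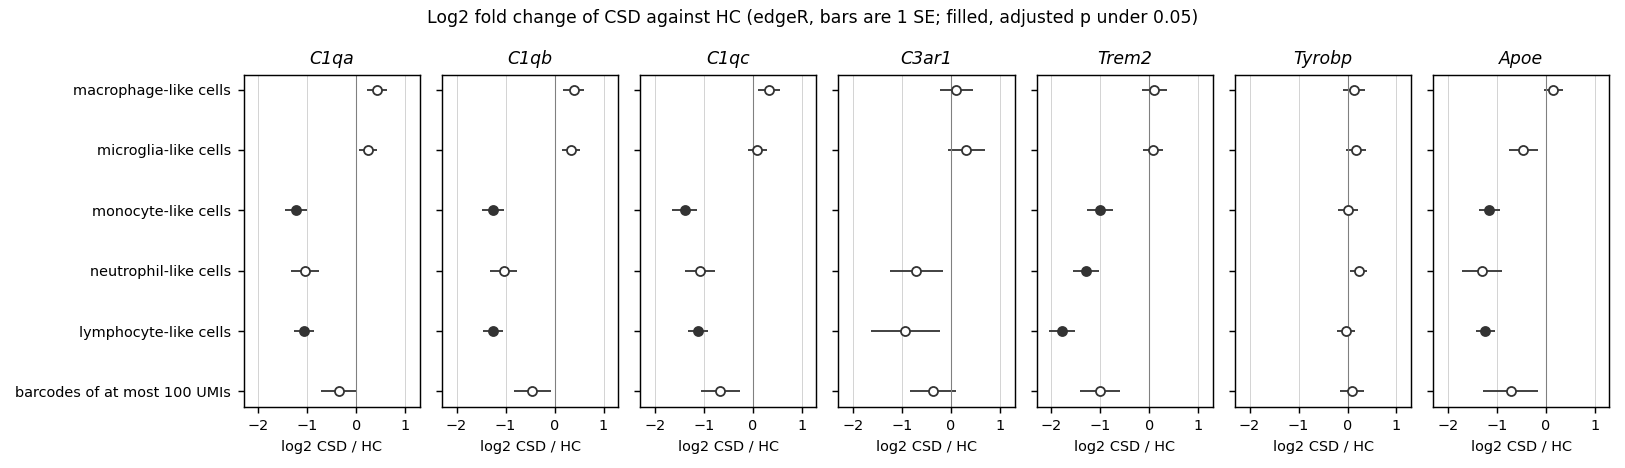
Log2 fold change of CSD against HC for each gene in 5 cell classes and in free RNA (barcodes of at most 100 UMIs), from edgeR, with bars of 1 SE and filled points where the adjusted p was under 0.05. Points lie near 0 or to its right in macrophage-like and microglia-like cells except for *Apoe* in microglia-like cells (-0.46), and near -1 or lower in monocyte-, neutrophil- and lymphocyte-like cells except for *Tyrobp* and *C3ar1*.

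Among genes of the same pathways, 75 of 76 listed symbols matched 1 gene each. *Itgam* had no such match, which happens where a symbol is absent or is shared by several genes. The matched genes are complement components, receptors and regulators (20 of 21), partners of TREM2 and DAP12 (21), lipid handling genes (18) and engulfment receptors and bridges (16). With CSD, 0 of 58 tested passed in macrophage-like cells, 0 of 39 in microglia-like, 0 of 48 in monocyte-like and 0 of 52 in neutrophil-like cells. In lymphocyte-like cells 1 of 48 passed, *Serping1*, the gene of the C1 inhibitor, lower with CSD (edgeR adjusted p = 0.00187) with 5, 26 and 0 UMIs, so that most of its UMIs lay in 1 HC library. The share over all genes in that comparison was 1.01%.

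Between the 2 phagocyte classes, 25 of 62 pathway genes tested were higher in macrophage-like cells and 6 were lower, with a median log2 difference of 0.47, beside 736 higher and 566 lower of all 7294 genes (17.9% in both directions together). Some of these genes helped to define or name the clusters, so the counts are a description. Of the lipid handling genes 7 of 15 were higher and 0 lower, of the engulfment genes 8 and 3 of 16, of the partners of TREM2 and DAP12 5 and 2 of 17, and of the complement genes 5 and 1 of 14. The highest were *Ch25h*, a cholesterol hydroxylase (31 UMIs in macrophage-like and 0 in microglia-like cells), *Timd4*, a phosphatidylserine receptor (33 and 0), *Trem1* (20 and 0), *Ms4a4a* (25 and 0) and *C4b*, a complement component (73 and 1). The 4 at 0 were at least 5.86-, 6.24-, 3.78- and 4.72-fold higher, taking 3 UMIs over the microglia-like cells as the floor.

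*C4b* was uneven, with 65, 3 and 5 UMIs. *Trem1* is abundant in neutrophils, whose markers reached 28455, 26353 and 31263 CPM in the macrophage-like and 28878, 24686 and 31906 CPM in the microglia-like cells. The lower genes were led by *Siglech* (-3.36, itself a marker used for naming), *Mertk*, a receptor for dying cells (-1.48 ± 0.23, edgeR adjusted p = 9.21e-06), *Inpp5d*, a phosphatase of the TREM2 pathway (-0.98), *Itgb5* (-0.91) and *Cr1l* (-0.78).

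Over 15 cell classes, the patterns of the 3 C1q chains were nearly the same (Pearson r of 1.00 between each pair, on log2(mean CPM + 10)), and *C3ar1* and *Trem2* were close to them. *Apoe* correlated with *C1qa* at 0.69 and *Trem2* at 0.57, and *Tyrobp* with *C1qa* at 0.33. Among 4353 genes, the nearest to *C1qa* were *Ccl12* (0.98), *Fcrls* (0.97) and *Adap2* (0.95), which were also the nearest to *C1qb* and *C1qc*. *C3ar1* was nearest to *Stab1* (0.94), *Ccl12* (0.94) and *P2ry6* (0.93). The nearest to *Trem2* were *Gpr34* (0.98), *Cx3cr1* (0.98) and *Fcrls* (0.97), genes of microglia, the nearest to *Apoe* were *Pf4*, *Ms4a7* and *Mrc1* (each 0.91), genes of border macrophages, and the nearest to *Tyrobp* were *Fcer1g* (0.94), which encodes another signalling adaptor, *I830077J02Rik* (0.90) and *Fes* (0.89). The points share libraries, depth and free RNA, so the values are descriptive.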

How the data were processed

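Cells of whole meninges, sorted as live nucleated singlets, were captured in 3 libraries (2 HC, 1 CSD; 4 mice pooled in each) on 1 chip with 3′ v2 chemistry. The deposited values are raw UMI counts per gene and barcode for 27998 genes, made by the authors with Cell Ranger 2 on mm10 according to the submitters' processing notes, with no cells called and no normalization. Libraries were told apart by the number that ends each barcode, taken as the pool number in the labels. The members and gene lists were chosen with earlier results of these data known. Total depth was 9891861, 8814690 and 10206236 UMIs (HC replicate 1, then HC replicate 2, then CSD replicate 1).

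Size factors and variable genes came from scran 1.30.0, and clusters from Leiden at resolution 1 (scanpy 1.11.5) on 50 components after a mutual-nearest-neighbour correction of the libraries modelled on fastMNN, with the 7 genes left out. Clusters were named from marker lists, and the MHCII subclusters came from the lowest resolution that gave 2. The mixed cluster scored highest for endothelial markers but was left without that name after its leading genes were seen. Doublets were kept, since Scrublet's automatic threshold marked only 0.109% of CSD replicate 1.

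UMIs were summed per library and class and tested two-sided with edgeR 4.0.16 (glmQLFit and glmQLFTest, TMM, genes with at least 20 UMIs, Benjamini-Hochberg adjustment over all genes tested, threshold 0.05). In comparisons of CSD with HC the single CSD library was taken to have the spread of the HC libraries. The script was tested on simulated data with the same dispersion for every gene and no pool effect, so that test does not cover differences between pools. Contrasts between classes had library as a block. Named genes are the 7, the 3 nearest in pattern to each, and up to 5 pathway genes per direction. *Serping1* was named because it was the only call in its count, after its value was seen. The tests of the difference between phagocytes and lymphocyte-like cells were added after seeing the data.

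Alternatives were DESeq2 1.42.0, library totals in place of TMM, no filter, the study's filter of genes in more than 15% of cells, each library left out, the top 5.1% of Scrublet scores left out, a floor of 1000 UMIs, no mutual-nearest-neighbour correction, Leiden resolution 2, free RNA from at most 50 UMIs, and no thinning. Promoters were read from RefSeq on GRCm38.p6.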

Additional observations from a re-analysis of the deposited data

Results flagged for a closer look

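The CSD change of 5 of the 7 genes in macrophage-like cells differed from that in lymphocyte-like cells, in a test of the difference itself that was added after the values were seen. On the log2 scale the change in macrophage-like cells minus that in lymphocyte-like cells was 1.46 ± 0.17 (SE) for *C1qa*, 1.62 ± 0.18 for *C1qb*, 1.43 ± 0.20 for *C1qc*, 1.91 ± 0.31 for *Trem2* and 1.28 ± 0.14 for *Apoe* (edgeR, interaction term over 6 sums, blocked on library, largest adjusted p = 1.53e-06), against 0.25% of 9583 genes. With DESeq2 no member passed. Without HC replicate 1 the values for *C1qa* and *Apoe* were 1.06 and 0.63, and without HC replicate 2 they were 1.82 and 1.90, with no test.

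The same 5 genes differed between microglia-like and lymphocyte-like cells, by 1.22 ± 0.15 for *C1qa*, 1.51 ± 0.16 for *C1qb*, 1.13 ± 0.18 for *C1qc*, 1.81 ± 0.26 for *Trem2* and 0.72 ± 0.16 for *Apoe* (edgeR, largest adjusted p = 0.00732), against 0.182% of 9331 genes. With DESeq2 2 of the 7 passed, and with library totals in place of TMM 2 passed. *C3ar1* and *Tyrobp* did not pass in either comparison. Both comparisons share the lymphocyte-like cells and each library's free RNA. In free RNA the values of these 5 genes were -0.36 to -1.0, and the part of free RNA in the difference was not tested.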

How the results depend on the processing

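By mean level, 6 of the 7 genes stayed highest in macrophage-like or microglia-like cells under the 4 alternatives run for it, and by the share of cells with a UMI 6 were highest there after thinning and 5 without thinning, when *Apoe* was seen in the largest share of pDC-like cells. In macrophage-like and microglia-like cells no member passed for CSD under any alternative. Where 5 members passed in monocyte-like cells, 0 passed with DESeq2, without a filter and with the study's filter on 15% of cells. In lymphocyte-like cells, where 5 passed, DESeq2, the 15% filter and Leiden resolution 2 gave 0 and library totals in place of TMM gave 2. In neutrophil-like cells, where 1 passed, DESeq2, the 15% filter and no mutual-nearest-neighbour correction gave 0, library totals, no filter and a floor of 1000 UMIs gave 5, and Leiden resolution 2 gave 3. For MHCII-high against MHCII-low cells, where 1 passed, DESeq2 and no mutual-nearest-neighbour correction gave 0 and library totals gave 3. Of the 5 differences between macrophage-like and lymphocyte-like cells DESeq2 gave 0, and of the 5 for microglia-like cells DESeq2 and library totals each gave 2. Leaving out each library gave 3 to 5 calls between macrophage-like and microglia-like cells and 1 to 1 between the MHCII subclusters. Library totals moved the median of all genes to -0.22 in neutrophil-like cells. The share of all genes called under each alternative is not given here, so these counts are not results about the 7 genes alone. The causes were not tested.

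The sign of some values that did not pass also turned. *Tyrobp* came to -0.025 in monocyte-like cells with library totals and to -0.033 with the 15% filter, -0.17 in neutrophil-like cells without the mutual-nearest-neighbour correction, and -0.014 in free RNA with library totals. Against free RNA, the neutrophil-like difference of *C3ar1* was 0.0075 without a filter and that of *Tyrobp* -0.15 without the correction. Between the MHCII subclusters *C1qa* came to 0.033 without the correction, *C1qb* to -0.077 and *Tyrobp* to -0.026 with library totals, and *Trem2* to -0.023 with DESeq2, -0.20 with library totals and between -0.22 and 0.054 when each library was left out. Without HC replicate 1, *Apoe* came to 0.21 in microglia-like cells and 0.30 in free RNA, *C1qa* to 0.13 and *C1qb* to 0.07 in free RNA, and *C3ar1* to -0.17 in macrophage-like cells and to -0.32 for the macrophage-like change minus the lymphocyte-like change.

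No paired analysis was possible because no label pairs an HC library with the CSD library. Depth limits *C3ar1* most, with 168 to 422 UMIs per library, and there is 1 CSD library, so a pool effect cannot be told apart from CSD.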
